A study of Danio rerio with 12 samples.

Results

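The genes described here encode secreted and membrane-bound metalloproteinases and one of their inhibitors, measured in macrophages and microglia sorted from zebrafish larval eyes. The list named 10 genes, mmp2, mmp9, mmp13a, mmp14a, mmp14b, adam8a, adam9, adam10a, adam17a and timp2a, and they were taken by exact gene name. Of these, 9 were found among the 25281 genes of the deposited tables. The name mmp13a occurs there only as a pair of numbered rows, which are described separately and enter no count of the 9 genes.

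Matrix metalloproteinases (MMPs) are zinc-dependent enzymes that cut collagens and other matrix proteins, and macrophages use them when they migrate and remodel tissue. ADAM proteases sit in the cell membrane and release the outer parts of other membrane proteins, among them cytokines, receptors and adhesion molecules, a step called shedding. TIMPs are secreted proteins that bind and block MMPs, and in mammals TIMP2 also takes part with MMP14 in the activation of the MMP2 precursor.

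RNA was amplified and sequenced from sorts of at most 1000 mCherry-positive eye cells, and 3 libraries were made for each of 4 groups. In the 2 ablated groups the retinal pigment epithelium (RPE), a pigmented sheet of cells that supports the photoreceptors, had been destroyed genetically with 10 mM metronidazole given for 24 h from 5 to 6 days post-fertilisation (dpf). The 2 unablated groups received no drug, so an effect of the drug and an effect of the ablation cannot be told apart. Cells were taken at 2 or 4 days post-injury (dpi), and all larvae had been kept unpigmented with phenylthiourea from 0.25 to 5 dpf. The titles of the replicate 2 libraries at 2 dpi give an age of 7 dpf, and the other titles give no age. The labels used here leave out the genetic line, the promoters that drive the ablation and the mCherry reporter, and the number of larvae per sort. Nothing in the labels says that the libraries of a group came from separate clutches, so the tests rest on a spread among libraries that may be technical.

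Libraries held 19791633 to 38935355 counts. The 10 macrophage markers summed to 5185 to 12038 CPM (counts scaled to library size, after trimmed-mean normalisation) in unablated and 11311 to 13799 CPM in ablated larvae at 2 dpi, and to 8878 to 9995 and 10108 to 12312 CPM at 4 dpi. Their median log2 fold change with ablation was 0.74 at 2 dpi, where 7 of 10 lay above 0 and 0 were called, and 0.30 at 4 dpi, where mfap4 was called higher. At 2 dpi mfap4 stood at 329 ± 192 CPM without and 1277 ± 216 CPM with ablation (SD, n = 3). The part of these markers in the protease values was not tested. Photoreceptor RNA stood apart in replicates 1 and 2 of the unablated 2 dpi group, where 15 photoreceptor genes summed to 129595 and 98091 CPM, against 373 CPM in replicate 3. In ablated larvae replicate 1 at 2 dpi had 12446 CPM, against 1535 and 121 CPM, and replicate 2 at 4 dpi had 28910 CPM, against 91.8 and 21.9 CPM. Same-numbered 2 dpi libraries of the 2 conditions have a common date in their titles, whereas all 4 dpi libraries carry a single date. Time therefore goes with larval age and with date, and these cannot be told apart. Replicate 2 of the unablated 4 dpi group stood apart for several proteases, as given below. In such bulk sorts a smaller number of cells of a type and less RNA per cell cannot be told apart.

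At 2 dpi mmp2, adam8a, adam9 and adam17a were higher in all 3 ablated libraries than in any unablated library, and mmp14b was lower in all 3. None of the 8 genes tested passed the threshold after adjustment (edgeR quasi-likelihood test, Benjamini-Hochberg adjusted p under 0.05), and neither did any of the 16048 genes tested, so the background was 0% called. At an unadjusted p under 0.05 edgeR counted 5 of the 8, against 16.8% of all genes. DESeq2 called 4 of the 8, mmp2, mmp9, adam8a and adam9, against 9.26% of all genes by that tool. With voom limma called 2, mmp2 and adam9, against 5.95%. On log2(TPM + 1) limma called 2, mmp2 and adam8a, against 6.07%. Groups did not overlap in the higher direction for 4 of 9 genes, against 19.8% of all genes, and in the lower direction for 1 of 9, against 7.51%. The median log2 fold change was 1.18 over the 8 tested genes and -0.12 over all genes; mmp14a was not tested because its counts did not pass the expression filter.

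At 4 dpi adam9 rose in ablated larvae, and it was the 1 gene of 9 that passed the threshold, against 3.71% of the 16313 genes tested and 1.83% in the higher direction. Groups did not overlap for mmp2 and adam9, both higher, against 15.6% of all genes in that direction. At an unadjusted p under 0.05 there were 2 of the 9, against 20.7% of all genes. The median log2 fold change was 0.05 over the 9 genes and -0.04 over all genes. For adam8a and adam17a, which were separate at 2 dpi, the groups overlapped at 4 dpi.

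Between 2 and 4 dpi mmp14b rose in ablated larvae, the 1 gene of 9 called in that comparison, against 1.29% of the 18079 genes tested and 0.376% in the higher direction. At an unadjusted p under 0.05 there were 2 of the 9, against 14.1% of all genes. Groups did not overlap in the higher direction for mmp14b, adam9, adam10a and timp2a, against 9% of all genes. In unablated larvae edgeR called 0 of 9 genes, against 0.868% of all genes, and counted 6 at an unadjusted p under 0.05, against 15.2%. DESeq2 called 3 of the 9, mmp14a, mmp14b and adam8a, against 7.79% of all genes by that tool. With limma voom 0 were called, against 2.11%, and with limma on log2(TPM + 1) 2, mmp14b and adam9, against 4.77%. The 6 genes whose unablated groups did not overlap, all higher at 4 dpi, were mmp14a, mmp14b, adam8a, adam9, adam10a and adam17a, against 10.3% of all genes in that direction.

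The difference of the ablation effect between the times was called for 0 of 9 genes by edgeR, by DESeq2 and by limma, and for 0% of all genes by edgeR, 0.443% by DESeq2 and 0% by limma on either scale. At an unadjusted p under 0.05 edgeR counted 2 of the 9, against 5.86% of all genes. These 2 genes were adam8a, with a difference of -4.32 on the log2 scale (SE 1.47, adjusted p = 0.811), and adam17a, with -0.76 (SE 0.30, adjusted p = 0.82). Without unablated 4 dpi replicate 2 the difference for adam8a was -2.14 (edgeR adjusted p = 0.927).

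**Figure D1:**
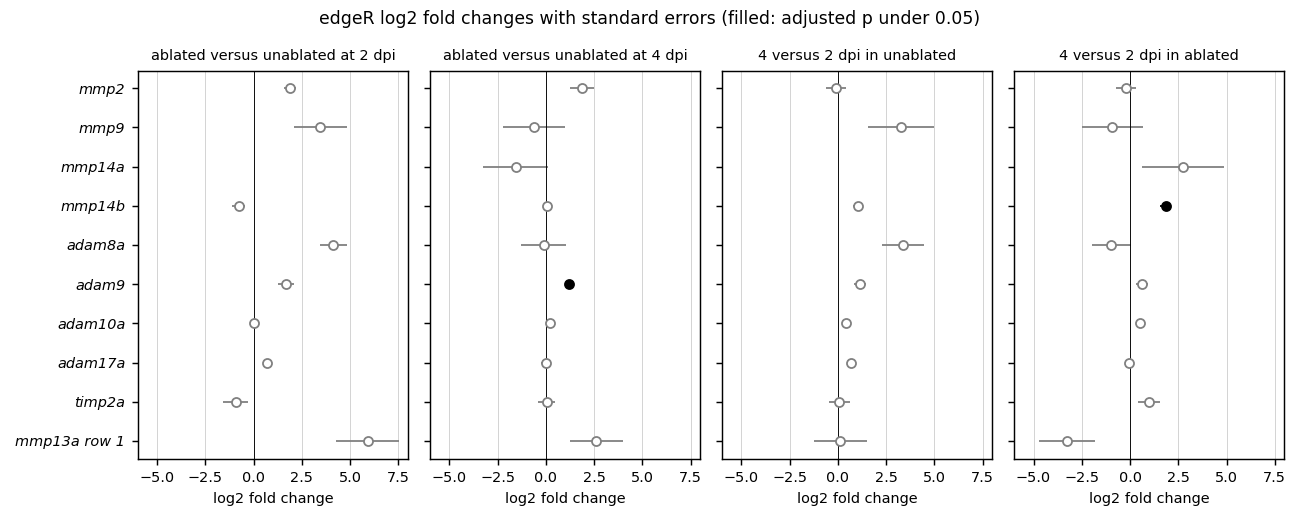
The horizontal axis gives edgeR log2 fold changes and the bars their standard errors, for 4 comparisons of 3 libraries against 3. The time contrasts were fitted on all 12 libraries. Filled points passed an adjusted p under 0.05, namely adam9 at 4 dpi and mmp14b between the times in ablated larvae; mmp14a is left out in unablated larvae, where the 2 dpi group held 2 counts.

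Levels of different genes were compared in TPM, the transcript level scaled by gene length and depth. The sheddase adam10a had the highest mean TPM of the 9 genes in all 4 groups, at 50.7 ± 1.37 in unablated and 58.1 ± 11.9 in ablated larvae at 2 dpi, and 78.6 ± 6.77 and 88.7 ± 8.33 at 4 dpi (SD, n = 3). It made up 50.9% to 56.2% of the 9 genes' summed TPM in unablated 2 dpi libraries and 23.7% to 43.7% in ablated ones. The membrane-type protease mmp14b came next in 3 of the groups, with 15.6 ± 3.07 TPM in unablated larvae at 2 dpi and 37.2 ± 0.676 and 38.5 ± 7.42 TPM in unablated and ablated larvae at 4 dpi (SD, n = 3). In ablated larvae at 2 dpi it was the seventh, at 10.2 ± 3.36 TPM, below adam8a, mmp2, mmp9, adam17a and adam9. Between neighbours in that order the libraries overlapped from adam10a down to mmp14b. In unablated larvae at 2 dpi, in contrast, adam10a, mmp14b, adam17a and mmp2 were separated from the next gene by libraries that did not overlap, except that mmp2 overlapped timp2a.

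The summed TPM of the 8 proteases was 89.2, 93.8 and 86.2 in unablated larvae at 2 dpi (replicates 1 to 3), and 143, 205 and 184 in ablated larvae. The 4 dpi sums were 160, 263 and 160 without and 239, 189 and 236 with ablation. The groups did not overlap at 2 dpi and did overlap at 4 dpi, where unablated replicate 2 was the highest library. These TPM values were not normalised between libraries. On log2(TPM + 1) the median log2 fold change over all genes at 2 dpi was 0.178, against -0.12 by edgeR. Of 809 limma calls on that TPM scale 772 were higher, so higher values at 2 dpi were not particular to the proteases.

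**Figure D2:**
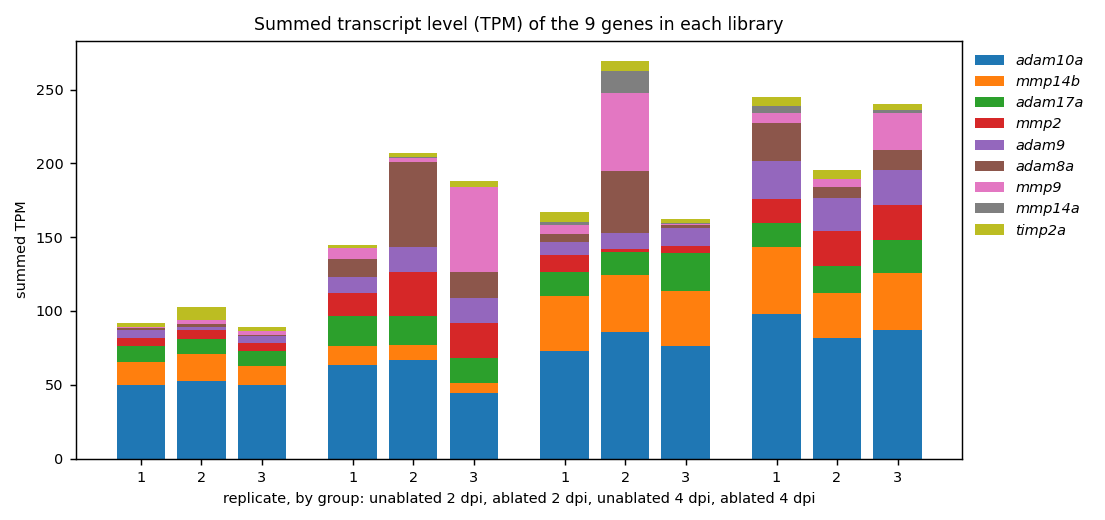
Each bar is a library, stacked by the TPM of the 9 genes, with replicates 1 to 3 in each of the 4 groups from left to right. Unablated 2 dpi libraries were the lowest, adam10a formed the base of every bar, and mmp9 and adam8a were wide segments in a few libraries only.

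The gelatinase gene mmp2 (ENSDARG00000017676, chromosome 7, 35410050 to 35432901, minus strand, GRCz11) encodes a secreted enzyme that cuts denatured collagen and basement membrane. In unablated larvae at 2 dpi it stood at 11.2, 10.7 and 11 CPM in replicates 1 to 3, and in ablated larvae at 29.5, 54.2 and 45.3 CPM. Levels at 4 dpi were 19.2, 3 and 8.17 CPM without and 30.5, 38.5 and 43.3 CPM with ablation. At both times every ablated library lay above every unablated library, and the unablated libraries were close together only at 2 dpi. The log2 fold change was 1.88 (SE 0.29, adjusted p = 0.0816 by edgeR) at 2 dpi and 1.88 (SE 0.63, adjusted p = 0.155) at 4 dpi, so neither was called by edgeR. DESeq2 called both (adjusted p = 6.69e-05 and 0.0225), as did limma voom (0.0457 and 0.0436). Within the 3 dates of the 2 dpi libraries the ablated level was 2.64, 5.05 and 4.11 times the unablated level. The time contrasts of mmp2 were -0.12 (SE 0.52) in unablated and -0.20 (SE 0.51) in ablated larvae, neither called.

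Fibroblasts are a known source of MMP2 in many tissues, and the summed level of 10 fibroblast and mesenchyme markers was therefore set beside mmp2. It ran from 35.1 to 159 CPM in unablated and from 14.4 to 53.4 CPM in ablated larvae at 2 dpi, and from 62 to 192 and 18.3 to 67.3 CPM at 4 dpi. These sums overlapped between the conditions at both times, with the higher end in unablated larvae. The markers fbln1 and postnb were at 0 in ablated larvae at 2 dpi, and fbln1 was at 0 in unablated larvae at 4 dpi. With ablation at 4 dpi the median log2 fold change of the 9 markers tested was -2.03, with 1 above 0. There pdgfra stood at 5.87, 6.14 and 7.87 CPM without and 0.0285, 0 and 0 CPM with ablation. The part of these cells in the mmp2 values was not tested.

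The other gelatinase gene, mmp9 (ENSDARG00000042816, chromosome 8, 24281512 to 24295947, plus strand), encodes an enzyme that neutrophils and activated macrophages release. It stood at 0.732, 4.74 and 4.54 CPM in unablated larvae at 2 dpi and at 12.9, 4.34 and 101 CPM in ablated larvae. The 4 dpi libraries gave 9.17, 87.1 and 0.472 CPM without and 11.7, 8.36 and 42.7 CPM with ablation. A single library gave most of the group mean at 2 dpi in ablated larvae (replicate 3) and at 4 dpi in unablated larvae (replicate 2), and the groups overlapped at both times. The log2 fold changes were 3.46 (SE 1.36, edgeR adjusted p = 0.28) at 2 dpi and -0.63 (SE 1.60, adjusted p = 0.888) at 4 dpi. Within the dates at 2 dpi the ratios were 17.6, 0.917 and 22.1, and without unablated replicate 2 the 4 dpi value turned to 2.12 (adjusted p = 0.552).

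The collagenase gene mmp13a is present as rows numbered 1 and 2, which lie side by side on chromosome 10 on the plus strand. Row 1 (ENSDARG00000012395, 38593645 to 38602561) carries the symbol mmp13a in the reference name table, and row 2 (ENSDARG00000114451, 38610741 to 38620514) has no symbol there. Reads of such neighbouring copies could be split between them, so their levels are uncertain. Row 1 stood at 0.488, 1.04 and 0 CPM without and 16.1, 14.7 and 66.1 CPM with ablation at 2 dpi, with no overlap. At 4 dpi the libraries held 0.694, 0.0483 and 0.885 CPM without and 5.3, 4.48 and 0.325 CPM with ablation, where the groups overlapped. All 3 ablated libraries at 2 dpi lay above every other library of the series. The log2 fold changes were 5.90 (SE 1.63, edgeR adjusted p = 0.155) at 2 dpi and 2.61 (SE 1.38, adjusted p = 0.359) at 4 dpi, neither called by edgeR. The 2 dpi value was called by DESeq2 (adjusted p = 0.000346) and by limma on log2(TPM + 1) (0.0276). Row 2 had 0 counts in unablated larvae at 2 dpi and 201 counts in ablated larvae, at least 14.8-fold higher when each unablated library is set to the floor of 3 counts (adjusted p = 0.123).

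Counts of some neutrophil genes differed between these libraries. The neutrophil peroxidase gene mpx had 0 counts in the 3 unablated 2 dpi libraries and stood at 7.95, 0 and 33.7 CPM in the ablated ones, with 4 dpi levels of 0, 2.22 and 0 CPM without and 14.4, 0.0289 and 0.856 CPM with ablation. The granule gene lyz did not exceed 0.376 CPM in any library, and the receptor gene cxcr1 did not exceed 4.54 CPM. The 11 neutrophil markers summed to 242 to 325 CPM in unablated larvae at 2 dpi, to 711, 939 and 845 CPM in ablated replicates 1 to 3, and to 435 to 543 and 832 to 962 CPM at 4 dpi. Ablated replicate 2, with mpx at 0, thus had the highest sum at 2 dpi. The metalloproteinase gene mmp25b, also on the neutrophil list, stood at 1.27, 2.83 and 4.09 CPM in ablated replicates 1 to 3. It had 0 counts in the 3 unablated 2 dpi libraries. At 4 dpi it ran from 0 to 1.59 CPM without and from 0.114 to 20.3 CPM with ablation. Much of the sum came from nccrp1 (means of 83.4 CPM without and 309 CPM with ablation at 2 dpi), srgn (71.2 and 311 CPM) and lect2l (69 and 88.6 CPM), which libraries with mpx at 0 also held. At 4 dpi mmp9 was highest in unablated replicate 2 (87.1 CPM) and ablated replicate 3 (42.7 CPM), where mpx stood at 2.22 and 0.856 CPM. Ablated replicate 1 at 4 dpi, with mpx at 14.4 CPM, held mmp9 at 11.7 CPM. In ablated replicate 2 at 2 dpi, where mpx was at 0, mmp9 was at 4.34 CPM, inside the unablated range, whereas row 1 of mmp13a was at 14.7 CPM and adam8a at 113 CPM. Without the 2 ablated libraries that held mpx counts, the log2 fold change at 2 dpi was 0.39 for mmp9, 4.87 for mmp13a row 1, 5.21 for adam8a, 2.32 for mmp2 and 1.95 for adam9. This fit took in the 4 dpi libraries and rests on a lone ablated 2 dpi library, replicate 2, assumed to vary like the other groups. The part of neutrophil RNA in these values was not tested.

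**Figure D3:**
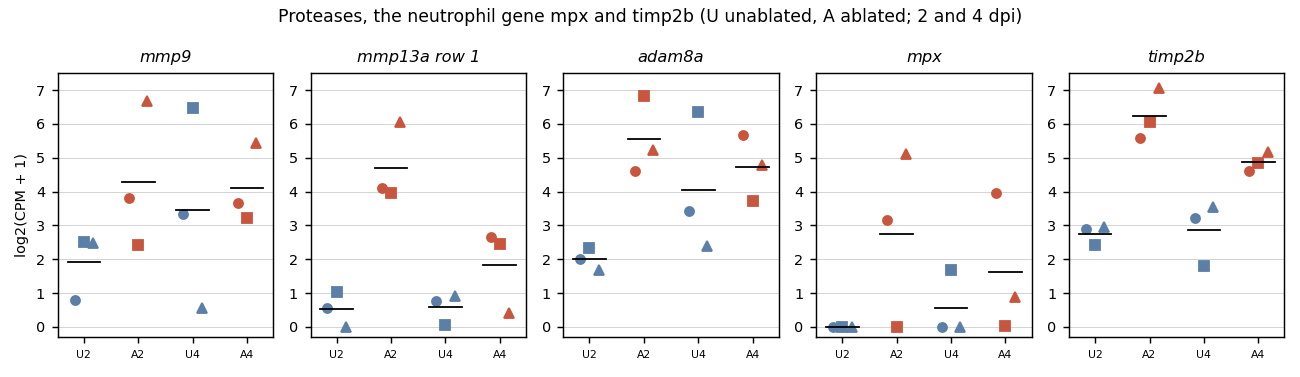
Each panel gives log2(CPM + 1) per library for 1 gene in unablated (U, blue) and ablated (A, red) larvae at 2 and 4 dpi, with circles, squares and triangles for replicates 1 to 3 and a line at the mean. The ablated 2 dpi replicate 2 square is at 0 for mpx but high for adam8a and mmp13a row 1, while timp2b separates the conditions at both times. That library also held mmp25b (2.83 CPM), another gene of the neutrophil list, which is not shown.

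The membrane-type enzymes cut matrix at the cell surface. The gene mmp14b (ENSDARG00000008388, chromosome 2, 38161318 to 38183641, plus strand) stood at 45.5, 53.1 and 38.3 CPM without and 37.2, 28.1 and 19 CPM with ablation at 2 dpi. Levels at 4 dpi were 91.3, 101 and 93 CPM without and 122, 74.9 and 106 CPM with ablation. All 4 dpi libraries lay above all 2 dpi libraries, and at 2 dpi the ablated libraries lay below the unablated ones. In ablated larvae mmp14b rose between the times by a log2 fold change of 1.84 (SE 0.27, edgeR adjusted p = 0.0243), or 3.59-fold. In unablated larvae the value was 1.06 (SE 0.26, adjusted p = 0.0953), not called, and the difference between these changes was 0.79 (SE 0.37, adjusted p = 0.841). The call in ablated larvae was kept without ablated 2 dpi replicate 1 and was lost on leaving out any of the other 5 ablated libraries, with log2 fold changes of 1.63 or more and adjusted p from 0.027 to 0.153, and it was also lost when only the ablated groups were fitted (1.99, adjusted p = 0.0553). The fit that kept the call called 0.977% of all genes. Those 5 fits called 0% of all genes, and the fit of the ablated groups alone called 0.0388%. At 2 dpi the ablation contrast was -0.77 (SE 0.33, adjusted p = 0.316), and the ablated level was 0.819, 0.53 and 0.495 times the unablated level within the dates. At 4 dpi it was 0.08 (SE 0.19, adjusted p = 0.873).

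Its paralog mmp14a (ENSDARG00000002235, chromosome 7, 24124289 to 24149670, minus strand) was far less abundant, and mmp14b had the higher TPM in 12 of 12 libraries. At 2 dpi mmp14a had 1, 0 and 1 counts in unablated and 0, 58 and 0 counts in ablated libraries. The 4 dpi libraries gave 4.14, 31.7 and 2.09 CPM without and 9.12, 0.0289 and 3.66 CPM with ablation. Nearly all its RNA was in 4 dpi libraries, with the highest level in unablated replicate 2. In unablated larvae 871 counts at 4 dpi stood against 2 at 2 dpi, a ratio of 392 (exact 95% interval 108 to 3245, counting error only), and the time contrast had an edgeR adjusted p of 0.183. At 2 dpi 58 counts in a single ablated library against 2 unablated counts gave a ratio of 21.7 (5.74 to 183). That interval leaves out the spread among libraries, so it does not bear on a difference between the conditions. At 4 dpi the log2 fold change was -1.57 (SE 1.70, adjusted p = 0.694), and 0.45 without unablated replicate 2.

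**Figure D4:**
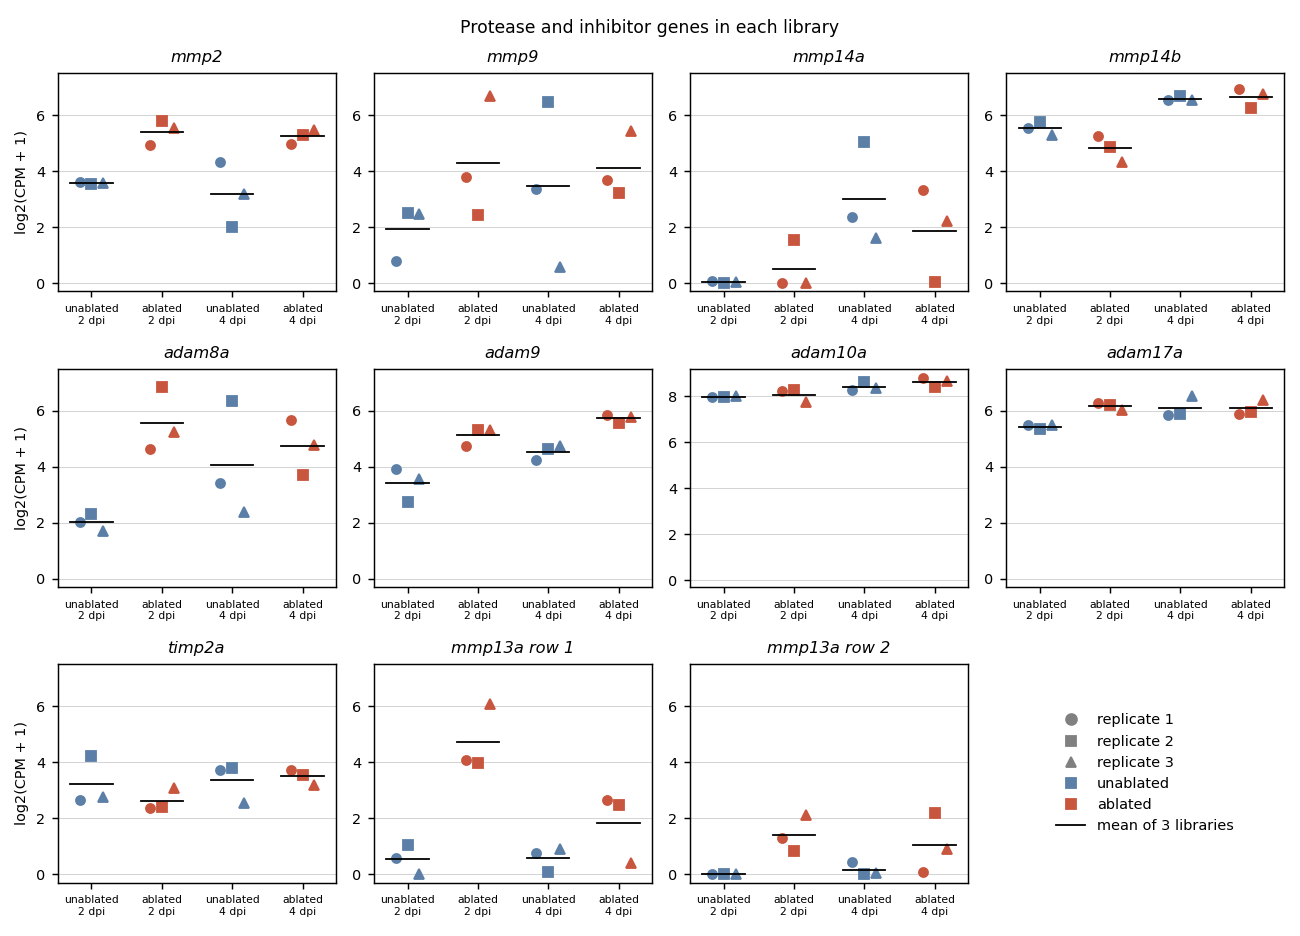
Each panel shows log2(CPM + 1) of 1 gene in each library of the 4 groups (blue, unablated; red, ablated; circle, square and triangle, replicates 1 to 3), with a line at the mean of the plotted values; the adam10a panel has a taller axis. All 3 ablated libraries of mmp2 lie above the unablated ones at each time, and mmp14b is higher in every 4 dpi library than in every 2 dpi library.

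The next genes encode general sheddases. ADAM10 cleaves Notch receptors and many adhesion molecules, and ADAM17 is the enzyme that releases tumour necrosis factor in mammals. The gene adam10a (ENSDARG00000053468, chromosome 7, 30406150 to 30492261, minus strand) stood at 250, 252 and 258 CPM without and 298, 306 and 213 CPM with ablation at 2 dpi. At 4 dpi the libraries held 308, 390 and 330 CPM without and 446, 337 and 402 CPM with ablation. The conditions overlapped at both times, and 4 dpi libraries lay above 2 dpi libraries in each condition. Ablation contrasts were 0.03 (SE 0.20, edgeR adjusted p = 0.951) at 2 dpi, a sign that turned with the scaling, and 0.20 (SE 0.15, adjusted p = 0.535) at 4 dpi. The time contrasts were 0.43 (SE 0.17, adjusted p = 0.265) in unablated and 0.54 (SE 0.17, adjusted p = 0.166) in ablated larvae, not called. The gene overlaps lipca on the opposite strand, and reads from the overlap cannot be assigned because the method does not mark strand.

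The gene adam17a (ENSDARG00000043213, chromosome 17, 35247497 to 35279422, minus strand) stood at 43.7, 39.3 and 43.7 CPM without and 75.6, 72.7 and 64.8 CPM with ablation at 2 dpi. Levels at 4 dpi were 56.5, 58.6 and 90.1 CPM without and 58.5, 61.8 and 83.1 CPM with ablation. The 2 dpi groups were separate and tight, and the 4 dpi groups covered the same range. The log2 fold change was 0.67 (SE 0.18, adjusted p = 0.146 by edgeR) at 2 dpi, with ratios of 1.73, 1.85 and 1.48 within the dates, and -0.01 (SE 0.24, adjusted p = 0.984) at 4 dpi. In unablated larvae the time contrast was 0.70 (SE 0.21, adjusted p = 0.154). In TPM adam17a exceeded its paralog adam17b in 12 of 12 libraries (medians 16.8 and 4.44), and adam10a exceeded adam10b likewise (69.8 and 2.45).

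ADAM9 is a membrane-anchored protease, and loss of the human gene causes a cone and rod dystrophy. The gene adam9 (ENSDARG00000010070, chromosome 8, 45850139 to 45939691, minus strand) stood at 14.1, 5.68 and 10.7 CPM without and 25.7, 38.7 and 39.2 CPM with ablation at 2 dpi. The 4 dpi libraries gave 17.8, 24 and 25.7 CPM without and 57, 46.4 and 54.1 CPM with ablation. Ablated libraries lay above unablated libraries at both times, and within each condition 4 dpi libraries lay above 2 dpi libraries. At 4 dpi adam9 rose 2.33-fold in ablated larvae (1.22 on the log2 scale, SE 0.20, adjusted p = 0.0344 by edgeR). At 2 dpi the value was 1.68 (SE 0.41, adjusted p = 0.129), with ratios of 1.83, 6.81 and 3.67 within the dates. The difference of the ablation effect between the times was -0.54 (SE 0.45, adjusted p = 0.922). Time contrasts were 1.15 (SE 0.32, adjusted p = 0.119) in unablated and 0.61 (SE 0.32, adjusted p = 0.456) in ablated larvae.

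The 4 dpi call for adam9 was kept without ablated replicate 2 and was lost on leaving out any of the other 5 libraries, with log2 fold changes from 1.08 to 1.38 and adjusted p from 0.0261 to 0.138. Those 5 fits called 0% to 0.221% of all genes, and the fit without ablated replicate 2 called 8.32%. It was also lost with all 12 libraries in the fit (adjusted p = 0.105) and with a block by replicate number (1.23, adjusted p = 0.132), whereas DESeq2 gave an adjusted p of 1.38e-05. At 2 dpi adam9 passed with all 12 libraries in the fit (log2 fold change 1.77, edgeR adjusted p = 0.0136), a setting that called 6.32% of all genes. Without the 2 unablated libraries rich in photoreceptor RNA its log2 fold change was 1.70. That fit also took in the 4 dpi libraries and left a lone unablated 2 dpi library, replicate 3, assumed to vary like the other groups.

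In mammals ADAM8 is a protease of myeloid cells that is induced on activation. The gene adam8a (ENSDARG00000001452, chromosome 13, 24671481 to 24679636, plus strand) stood at 3.03, 4.01 and 2.24 CPM without and 23.6, 113 and 36.7 CPM with ablation at 2 dpi. At 4 dpi the libraries held 9.69, 81 and 4.22 CPM without and 50, 12.1 and 26.6 CPM with ablation. The 2 dpi groups were far apart, and at 4 dpi unablated replicate 2 exceeded every ablated library. The log2 fold change was 4.13 (SE 0.71, adjusted p = 0.0845 by edgeR) at 2 dpi, with ratios of 7.79, 28.3 and 16.4 within the dates, and -0.10 (SE 1.16, adjusted p = 0.976) at 4 dpi. DESeq2 called the 2 dpi value (adjusted p = 7.64e-07), as did limma on log2(TPM + 1) (0.0338). Without unablated 4 dpi replicate 2 the 4 dpi value turned to 2.09 (adjusted p = 0.238). In unablated larvae the time contrast was 3.36 (SE 1.09, adjusted p = 0.18), and 1.17 without that same library (adjusted p = 0.616).

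The inhibitor gene timp2a (ENSDARG00000061226, chromosome 12, 33990947 to 34035364, minus strand) stood at 5.27, 17.6 and 5.84 CPM without and 4.21, 4.34 and 7.38 CPM with ablation at 2 dpi. Levels at 4 dpi were 12.3, 13 and 4.87 CPM without and 12.2, 10.8 and 8.21 CPM with ablation. The conditions overlapped at both times, with log2 fold changes of -0.94 (SE 0.65, edgeR adjusted p = 0.499) and 0.05 (SE 0.44, adjusted p = 0.97). On leaving out a library the 2 dpi value ran from -1.24 to -0.23, and the ratios within the dates were 0.799, 0.247 and 1.26. In unablated replicates 1 to 3 at 2 dpi, 8 RPE markers summed to 63.5, 2943 and 7.49 CPM. The part of RPE RNA in the timp2a values was not tested. The gene timp2a overlaps BX279525.1 on the same strand, so reads of the overlap may belong to either.

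Its paralog timp2b had the smallest p of the inhibitor genes tested at each time. In TPM it stood at 2.75, 1.96 and 2.8 in unablated and 21.3, 30.5 and 60.2 in ablated larvae at 2 dpi, and at 4.28, 1.18 and 5.32 and 11.2, 14.6 and 16.5 at 4 dpi. Ablated libraries lay above unablated libraries at both times, but neither difference was called, at 3.72 (log2, SE 0.47, adjusted p = 0.0726 by edgeR) and 2.01 (SE 0.53, adjusted p = 0.0899). In TPM timp2a exceeded timp2b in 3 of 12 libraries. Another inhibitor gene, timp4.3, went the other way at 4 dpi without overlap, from 9.6 ± 2.16 to 2.6 ± 1.54 CPM (SD, n = 3). Its log2 fold change was -1.89 (SE 0.56, edgeR adjusted p = 0.119), not called. Among the inhibitor genes other than timp2a, DESeq2 called 2 of 3 tested at 2 dpi, against 9.26% of all genes. At 4 dpi it called 2 of 4, against 14.2%.

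Other protease genes were mostly low. Of 20 further mmp genes 18 were found and 6 had a mean of at least 1 CPM, and of 17 adamts genes 14 were found and 1 had such a mean. Of 14 further adam genes 10 were found and 9 reached that mean. At 4 dpi edgeR called 0 of 6 tested mmp genes, with 0 at an unadjusted p under 0.05 and 0 by DESeq2. Of 10 tested adam genes edgeR called 0, with 1 at an unadjusted p under 0.05 and 1 by DESeq2. Over all genes at that time 20.7% had an unadjusted edgeR p under 0.05, and DESeq2 called 14.2%. Among the mmp genes mmp30 had the smallest p (log2 fold change -3.47, SE 1.88, edgeR adjusted p = 0.386). Its 4 dpi levels were 9.6, 62.2 and 8.58 CPM without and 0.314, 0.0289 and 6.94 CPM with ablation. At 2 dpi mmp30 reached 91.4 CPM in unablated replicate 3 and did not exceed 0.0297 CPM in any other library. The gene with the smallest p among the adam genes was adam28, with 72.6 ± 16.2 CPM without and 39.2 ± 8.37 CPM with ablation (SD, n = 3; log2 fold change -0.89, SE 0.24, adjusted p = 0.0924). At 2 dpi edgeR called none of 6 mmp and none of 10 adam genes. At an unadjusted edgeR p under 0.05 there were 2 of each, against 16.8% of all genes. DESeq2 called 0 of each, against 9.26% of all genes. Of these 6 mmp genes mmp25b had the smallest p, with 0 CPM without and 2.73 ± 1.41 CPM with ablation (SD, n = 3, edgeR adjusted p = 0.107). The other 5 had log2 fold changes below 0, and the median was -1.87 over the 6 and -0.12 over all genes.

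Among partners and substrates, 6 genes passed the threshold at 4 dpi with a group mean of at least 10 CPM. Over all 16313 genes tested, edgeR called 3.71% at that time, 298 higher and 307 lower. DESeq2 called 3 of 16 sheddase partners and activators, 3 of 5 plasminogen system genes and 7 of 20 substrates, against 14.2% of all genes. Of 16 tested sheddase partners and activators, cd44b, a hyaluronan receptor that can hold MMPs at the cell surface, rose (1.65 on the log2 scale, SE 0.27, adjusted p = 0.035 by edgeR). It went from 15.5 ± 4.26 to 48.8 ± 9.39 CPM (SD, n = 3). Its more abundant paralog cd44a went the other way without overlap, from 141 ± 6.08 to 21.6 ± 17.3 CPM, and was not called. The ADAM10-binding tetraspanin gene tspan15 fell by 2.81 on the log2 scale (SE 0.30, adjusted p = 0.0196), from 39.6 ± 3.4 CPM to 5.63 ± 1.74 CPM (SD, n = 3). Of 5 tested genes of the plasminogen system, which activates several MMPs, s100a10b rose (2.23, SE 0.37, adjusted p = 0.0365) and the protease inhibitor gene serpine2 fell by 0.77 (SE 0.13, adjusted p = 0.0378). Of 20 tested sheddase and protease substrates, il6r rose (1.71, SE 0.15, adjusted p = 0.0146), from 28.3 ± 2.55 to 92.9 ± 8.81 CPM, and the cadherin gene cdh1 fell by 1.96 (SE 0.31, adjusted p = 0.0337). The gene il6r is also on the neutrophil list, of which 3 of 9 tested members were called higher at 4 dpi, against 1.83% of all genes. The 8 epithelial markers, which include cdh1, summed to 2004 to 4462 CPM in unablated and 815 to 1154 CPM in ablated larvae at 4 dpi. Of the 8, 3 were called lower, and cdh1 is 1 of these 3. At 2 dpi the marker epcam stood at 169, 1125 and 3542 CPM without and 218, 34.5 and 908 CPM with ablation. In the same order of replicates 1 to 3, cd44a stood at 11.4, 56.4 and 162 CPM and 10.9, 1.15 and 53.4 CPM. For serpine2 the values were 26.3, 70.7 and 215 CPM and 49.9, 34.2 and 78.2 CPM. The part of epithelial RNA in the values of cdh1, tspan15, cd44a and serpine2 was not tested. Without ablated 4 dpi replicate 2, which left 1420 genes called (8.32%), all 6 calls were kept. The other 5 fits that leave out a library called 0% to 0.221% of all genes. On leaving out any of the other 5 libraries the 6 calls were lost, except that il6r was kept without unablated replicate 3, with adjusted p of 0.0526 to 0.139 where a call was lost. At 2 dpi, where edgeR called 0 of 16048 genes, cd44b, s100a10b and il6r were also higher without overlap, against 19.8% of all genes. They went from 14.2 ± 5.51 to 54.9 ± 28.8, from 78.4 ± 46.9 to 925 ± 534 and from 16.2 ± 1.2 to 49.9 ± 15.2 CPM (SD, n = 3). For tspan15, serpine2 and cdh1 the groups overlapped at 2 dpi. The plasminogen system gene anxa2a went from 3.04 ± 2.57 to 243 ± 96.6 CPM there, not called (edgeR adjusted p = 0.103).

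Of 13 matrix genes tested at 4 dpi, edgeR called 1, against 3.71% of all genes, and DESeq2 called 5, against 14.2%. The edgeR call was col6a1, a collagen subunit, lower with 437 counts in unablated and 0 in ablated larvae (edgeR adjusted p = 0.0321). Among the 6 fits that leave out a library, this call was kept only without ablated replicate 2, the fit that called 8.32% of all genes. The others called 0.221% or less. The median log2 fold change over the 13 was -1.60, against -0.04 over all genes. Of 9 tested fibroblast and mesenchyme markers 1 was called lower at that time, and col1a1a, col1a2 and col5a1 are on both lists. The part of fibroblast RNA in the matrix values was not tested. Between the times mertka, a receptor for engulfment of dead cells that is shed by ADAM17 in mammals, rose in unablated larvae (1.29, SE 0.23, adjusted p = 0.0412), and notch1a rose in ablated larvae (1.54, SE 0.31, adjusted p = 0.0456). Each was the 1 call among 21 tested substrates, against 0.868% of all genes in unablated and 1.29% in ablated larvae. In the other condition each also rose without overlap of the groups, not called. There mertka went from 84.8 ± 26.9 to 144 ± 28.2 CPM in ablated larvae, and notch1a from 27.5 ± 10.4 to 60.5 ± 8.62 CPM in unablated larvae (SD, n = 3). The call for mertka was kept without unablated 2 dpi replicate 3 and lost without any of the other 5 unablated libraries (adjusted p = 0.0669 to 0.118), and that for notch1a was lost without any 1 of the 6 ablated libraries (0.0881 to 0.206). Of all genes, 2.6% were called in the fit where mertka was kept and 0.0744% to 0.738% in those where it was lost. The fits where notch1a was lost called 0% to 0.977%. With only the groups compared in the fit both the mertka and the notch1a call were lost (0.32 and 0.0553), and 0% and 0.0388% of all genes were called.

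Across the 12 libraries, the genes with patterns closest to those of 4 of the proteases were ranked by Pearson's r of log2(CPM + 1) over 14507 genes, as a description. Tested genes with a placeholder symbol, such as a clone name, had been left out of the ranking. The genes nearest to mmp2 were fgl2a (r = 0.953), cstf1 (0.948) and CTBP1 (0.934), and fgl2a stood at 14.7 ± 2.38 and 81.2 ± 40.2 CPM in unablated and ablated larvae at 2 dpi (SD, n = 3). The nearest to adam8a were smpd2b (0.948), rida (0.922) and stx12 (0.919), and to mmp13a row 1 syncripl (0.959), mphosph10 (0.957) and qars (0.948). For mmp9 the closest were colgalt1 (0.830), bnip1b (0.829) and socs1a (0.820), lower values than for the other 3 genes. The libraries share groups, dates and depth, which enter these values.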

How the data were processed

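The deposited tables hold counts per gene and TPM values per gene, both made by the authors, per the file headers, with gene positions and names. The build was GRCz11, per the submitters' processing notes. The aligner, counter and annotation were not given in the sources used here. The cDNA method for small inputs does not mark strand, and amplified reads are not independent molecules. The intervals treat pooled reads as independent, so they leave out the spread among libraries and may be too narrow even for counting error.

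The main test on the counts was the robust quasi-likelihood test of edgeR 4.0.16, with TMM normalisation, the default expression filter and Benjamini-Hochberg adjustment over all genes tested. Each ablation contrast used the 6 libraries of its time, and time contrasts and their difference used all 12. The SE of an edgeR value is its absolute log2 fold change divided by the square root of the quasi-likelihood F. Alternatives were DESeq2 1.42.0 and its size factors, limma 3.58.1 (voom, or log2 TPM with pseudocounts of 1 and 0.1), other filters, photoreceptor counts left out of library sizes, a replicate block, other sets of libraries, and omission of libraries, in R 4.3.3. At 2 dpi the numbers pair libraries through a shared title date (deviations correlated at r = 0.64, 0.02 and 0.62), and at 4 dpi they do not (-0.22, -0.46 and -0.12). Libraries of the same number at 2 and 4 dpi share no date, so across the times the replicate block ties them by number alone. The procedure was also run on simulated counts with a spread common to all genes. That run does not show how the procedure behaves with outlying libraries such as those described here. The genes and lists were chosen with earlier results of these data known. Named genes were all those of the list; from the other lists, genes with an adjusted p under 0.05 and a group mean of at least 10 CPM, else the smallest p; not all are printed, and col6a1 was named after its values were seen.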

Additional observations from a re-analysis of the deposited data

How the results depend on the processing

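With 3 libraries a group, calls depended on the tool and on single libraries, for these genes and for all genes tested. The number of the 9 genes called at 2 dpi was 0 in the main analysis, 4 by DESeq2 (9.26% of all genes), 2 by limma voom (5.95%), 2 on log2(TPM + 1) (6.07%), 2 on log2(TPM + 0.1) (5.33%), 1 with all 12 libraries (6.32%) and 1 without the unablated libraries rich in photoreceptor RNA (6.6%); the replicate block gave 0, as did leaving out each library (0 to 0). At 4 dpi it was 1, against 2 by DESeq2 (14.2%), 2 by limma voom (8.94%), 0 with the replicate block (0%), 0 with all 12 libraries (1.23%) and 0 to 1 on leaving out a library (0% to 8.32%). In unablated larvae over time it was 0, against 3 by DESeq2 (7.79%), 2 on log2(TPM + 1) (4.77%) and 2 on log2(TPM + 0.1) (4.66%). In ablated larvae over time it was 1, against 2 by DESeq2 (6.91%), 2 by limma voom (11%), 0 with only the groups compared (0.0388%) and 0 to 1 on leaving out a library (0% to 0.977%). For the difference of effects it was 0 throughout. With the replicate block 0 genes were called at 4 dpi, so the 7 partner, substrate and matrix calls were lost too (adjusted p = 0.111 to 0.21), as was mertka (0.0748), whereas notch1a was kept (0.0438). At 4 dpi and across the times the numbers mark no known pairing, so a call kept or lost under this block decides little. With all 12 libraries those 7 calls at 4 dpi were lost except il6r (0.0102).

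Log2 fold changes that turned sign were not called under any setting, and the cause was not tested. At 2 dpi adam10a was -0.14 with DESeq2's size factors and with DESeq2, -0.04 with photoreceptor counts left out of library sizes, -0.03 with no filter and -0.09 with the strict filter (-0.06 to 0.20 on leaving out a library). At 4 dpi mmp9 was 1.89 with voom, 0.50 and 1.00 on TPM with pseudocounts of 1 and 0.1, and 0.59 with the block (-1.68 to 2.12); adam8a was 1.24, 0.58, 0.71 and 1.14 in the same order (-0.71 to 2.09); and adam17a was 0.05 with voom and 0.00 with the block (-0.19 to 0.28). On leaving out a library at 4 dpi mmp14a ranged from -2.77 to 0.45, mmp14b from -0.07 to 0.29 and timp2a from -0.23 to 0.28. In unablated larvae over time timp2a was -0.03 with the size factors and with DESeq2 and -0.50 with voom (-0.22 to 0.86), mmp13a row 1 was -0.01 with DESeq2 and -0.91 with voom (-0.46 to 1.23), and mmp2 ranged from -0.97 to 0.32. In ablated larvae over time mmp9 was 0.86 with voom (-1.97 to 1.28), adam17a was 0.02 with the size factors, with no filter and with DESeq2, 0.00 on both TPM scales and 0.07 with only the groups compared (-0.24 to 0.03), mmp2 ranged from -0.41 to 0.00 and mmp13a row 2 from -1.97 to 0.40. For the difference of effects mmp2 was 0.13 with the size factors, 0.01 with no filter, 0.12 with DESeq2, 0.06 with voom, 0.09 and 0.19 on TPM and 0.33 with the block (-0.52 to 0.77), mmp9 was 0.04 with voom, mmp14a ranged from -7.15 to 1.36 and adam10a from -0.05 to 0.20.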
